A study of Mus musculus with 4 samples.

Results

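The 10 genes described here are Kit, its ligand gene Kitl and 8 genes listed with them for spermatogonia and their differentiation. These 8 are Sohlh1, Sohlh2, Dmrt1, Dmrtb1, Nanos3, Dnmt3b, Foxo1 and Uchl1. The 10 genes were taken by symbol from a deposited table of 24420 genes, where all 10 were found. RNA from testis of FVB mice was sequenced in 4 libraries, 2 of the genotype labelled lrrc8a MUT and 2 labelled WT. The series concerns the LRRC8A-dependent volume-regulated anion channel and male infertility. The sources used here do not give the kind of mutation, the age of the mice or whether replicate libraries stem from different animals, so the p-values reflect only how far these libraries vary, which may be technical. The labels call the material germ cells but name freshly isolated testis tissue as its source and mention no cell sorting, and whether germ cells were enriched is not known from these sources. The germ cell gene Ddx4 lay at 422.5 to 480.9 CPM (reads scaled to an adjusted library size), and genes of Leydig and Sertoli cells were measured as well, with summed levels of 1405 to 1758 CPM over 18 and 1576 to 1705 CPM over 25 genes, so somatic RNA was present in each library.

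Spermatogonia that leave the stem cell pool begin to express KIT, a receptor tyrosine kinase, and depend on KIT ligand from Sertoli cells for survival and division. SOHLH1 and SOHLH2, basic helix-loop-helix partners, are needed for this step and for Kit expression, while the DM-domain factors DMRT1 and DMRTB1 control how long cells stay in the mitotic program before meiosis. Downstream of KIT, PI3K and AKT signalling moves FOXO1 out of the nucleus. In the testis Kit is also expressed by Leydig cells and mast cells, and haploid germ cells make a short Kit transcript from an internal promoter. The deposited values are per gene and do not separate these sources.

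Since SOHLH1 and SOHLH2 bind the E-box CANNTG, the promoters of Kit, the only member that passed the test below, and of the SOHLH pair are shown, with E-boxes in capitals. The windows come from RefSeq on GRCm38.p6 and run 5′ to 3′ along the gene's strand, from 250 bases before to 50 bases after the annotated start. They lie at chr5:75574737-75575036 on the plus strand (Kit), chr2:25847199-25847498 on the minus strand (Sohlh1) and chr3:55181794-55182093 on the plus strand (Sohlh2).
Kit: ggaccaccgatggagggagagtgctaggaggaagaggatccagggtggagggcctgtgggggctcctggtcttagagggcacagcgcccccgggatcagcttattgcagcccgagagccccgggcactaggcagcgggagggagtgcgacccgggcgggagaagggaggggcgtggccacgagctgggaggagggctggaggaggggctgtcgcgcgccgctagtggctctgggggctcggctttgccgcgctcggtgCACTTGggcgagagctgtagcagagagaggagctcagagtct
Sohlh1: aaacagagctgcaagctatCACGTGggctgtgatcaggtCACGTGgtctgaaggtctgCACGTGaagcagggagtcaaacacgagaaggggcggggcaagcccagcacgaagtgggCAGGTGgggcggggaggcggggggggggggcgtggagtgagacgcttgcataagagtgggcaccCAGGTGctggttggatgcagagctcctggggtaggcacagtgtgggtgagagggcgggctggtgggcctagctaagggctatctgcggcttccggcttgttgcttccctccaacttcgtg
Sohlh2: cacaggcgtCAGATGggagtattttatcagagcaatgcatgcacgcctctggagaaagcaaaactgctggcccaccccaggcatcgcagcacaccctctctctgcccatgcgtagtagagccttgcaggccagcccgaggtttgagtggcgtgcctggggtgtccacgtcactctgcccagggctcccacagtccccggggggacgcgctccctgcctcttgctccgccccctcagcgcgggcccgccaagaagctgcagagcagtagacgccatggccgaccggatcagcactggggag

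The pattern CANNTG is the same on both strands, while a single match need not be. Kit had 1 match, CACTTG, at base 259 of its window, just past the start, and Sohlh2 had 1, CAGATG, at base 10. Sohlh1 had 5, of which 3 were the palindrome CACGTG, at bases 20, 40 and 59, and 2 were CAGGTG, at bases 117 and 181. Of 32851 RefSeq windows of 300 bases, 72.3% held at least 1 E-box, 7.2% held CACGTG, 2.1% held at least 5 E-boxes and 29 windows (0.0883%) held CACGTG at least 3 times. Promoter windows were at hand for 9 of the 10 genes, and 8 of these 9 held an E-box in a window. Uchl1 held none. A match describes the letters only, and no binding was measured here.

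The 4 libraries held 40426400 to 68192776 reads assigned to genes, and 1 read was worth 0.0148 to 0.0244 CPM. Lrrc8a itself was at 13.49 and 15.86 CPM in MUT 1 and MUT 2, against 18.21 and 17.15 CPM in WT 1 and WT 2, and its difference did not pass the test (limma adjusted p = 0.218). Of 15364 tested genes, limma called 74 higher (0.482%) and 41 lower (0.267%) in MUT testis at an adjusted p under 0.05, a share of 64.3% higher among the called genes. With reads scaled to plain library totals the counts were 127 and 35, and 78.4% of the called genes were higher.

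Kit was the only member that passed this test. Its level was 20.67 and 23.09 CPM in MUT 1 and MUT 2, against 14.6 and 16.97 CPM in WT 1 and WT 2. Each MUT library lay above each WT library. The means were 21.88 ± 1.71 CPM in MUT and 15.78 ± 1.68 CPM in WT (SD, n = 2), a ratio of 1.39, and Kit rose by a log2 fold change of 0.46 (SE 0.0987, 95% interval 0.25 to 0.67, limma adjusted p = 0.0329). These levels rest on 844 to 1008 reads per library, for which an exact Poisson 95% interval spans about 6.22% to 6.81% to either side and covers counting error only. The gap between the WT libraries, 2.37 CPM, and that between the MUT libraries, 2.42 CPM, were each smaller than the 3.7 CPM between the lowest MUT and the highest WT library. Kit (ENSMUSG00000005672) lies on chromosome 5 (plus strand, bases 75574916 to 75656722) on GRCm38, with 8 annotated transcripts, and no other annotated gene overlaps it.

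The size of the Kit difference varied little with the settings, while its place beside the threshold did. Over 17 other settings the log2 fold change ran from 0.36 to 0.57 and the adjusted p from 0.00535 to 0.223, and Kit was called in 10 of them. The call was absent without MUT 2 (0.38, limma adjusted p = 0.106), without WT 1 (0.36, adjusted p = 0.101) and after correction of each library for GC content and transcript length (0.42, adjusted p = 0.0892). It was kept by edgeR (adjusted p = 0.033) and DESeq2 (adjusted p = 0.0194) on the recovered reads.

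**Figure D1:**
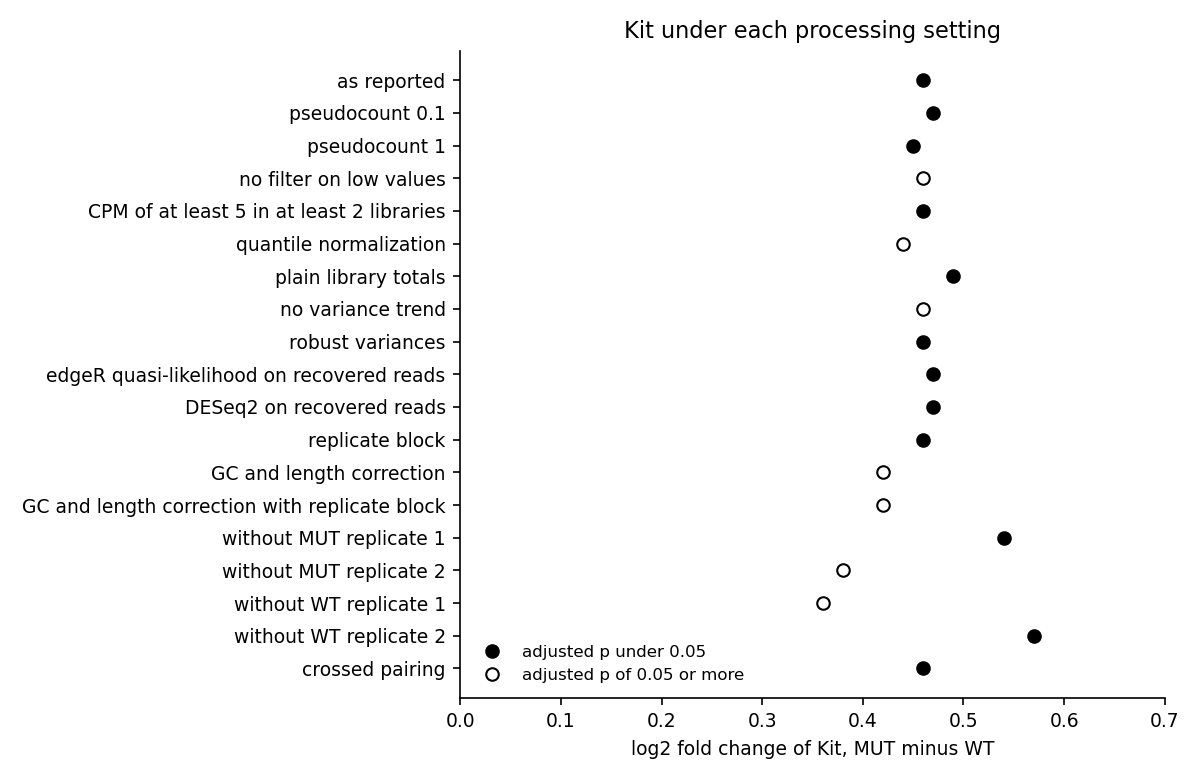
Log2 fold change of Kit, MUT minus WT (x axis), under the reported setting, 17 other settings and a crossed pairing of the replicates (y axis). Filled circles have an adjusted p under 0.05. All points lie between 0.36 and 0.57, and the lowest are those without WT 1 and without MUT 2.

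Kitl, which encodes the KIT ligand, showed no comparable difference. It was at 10.48 and 10.58 CPM in MUT 1 and MUT 2, against 9.137 and 11.68 CPM in WT 1 and WT 2. Both MUT libraries lay between the WT libraries. The log2 fold change was 0.03 (SE 0.116, limma adjusted p = 0.946), with a 95% interval of -0.22 to 0.27, and its sign changed without WT 1 and after the GC and length correction. The ratio of Kit to Kitl CPM was 1.97 and 2.18 in MUT against 1.6 and 1.45 in WT. Kitl (ENSMUSG00000019966) lies on chromosome 10 (plus strand, bases 100015630 to 100100416).

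The helix-loop-helix genes upstream of Kit did not pass the test. Sohlh1 was at 4.777 and 3.665 CPM in MUT 1 and MUT 2, against 4.153 and 4.282 CPM in WT 1 and WT 2, so the MUT libraries lay on either side of the WT libraries. Its log2 fold change was -0.01 (SE 0.14, 95% interval -0.30 to 0.28, limma adjusted p = 0.987), and the sign changed in 7 of 16 other settings. Sohlh1 rests on 150 to 280 reads per library. Sohlh2 was at 10.85 and 11.41 CPM in MUT against 9.7 and 10.23 CPM in WT. Its MUT libraries lay above the WT libraries by a small margin, with a log2 fold change of 0.15 (SE 0.103, 95% interval -0.06 to 0.37, limma adjusted p = 0.52). The Sohlh1 to Sohlh2 ratio in CPM was 0.44 and 0.321 in MUT 1 and MUT 2, against 0.428 and 0.418 in the WT libraries, and MUT 2 stood lowest. Sohlh1 (ENSMUSG00000059625) lies on chromosome 2 (minus strand, bases 25842995 to 25847248), 4.39 Mb from Lrrc8a, and Sohlh2 (ENSMUSG00000027794) on chromosome 3 (plus strand, bases 55182028 to 55209957).

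**Figure D2:**
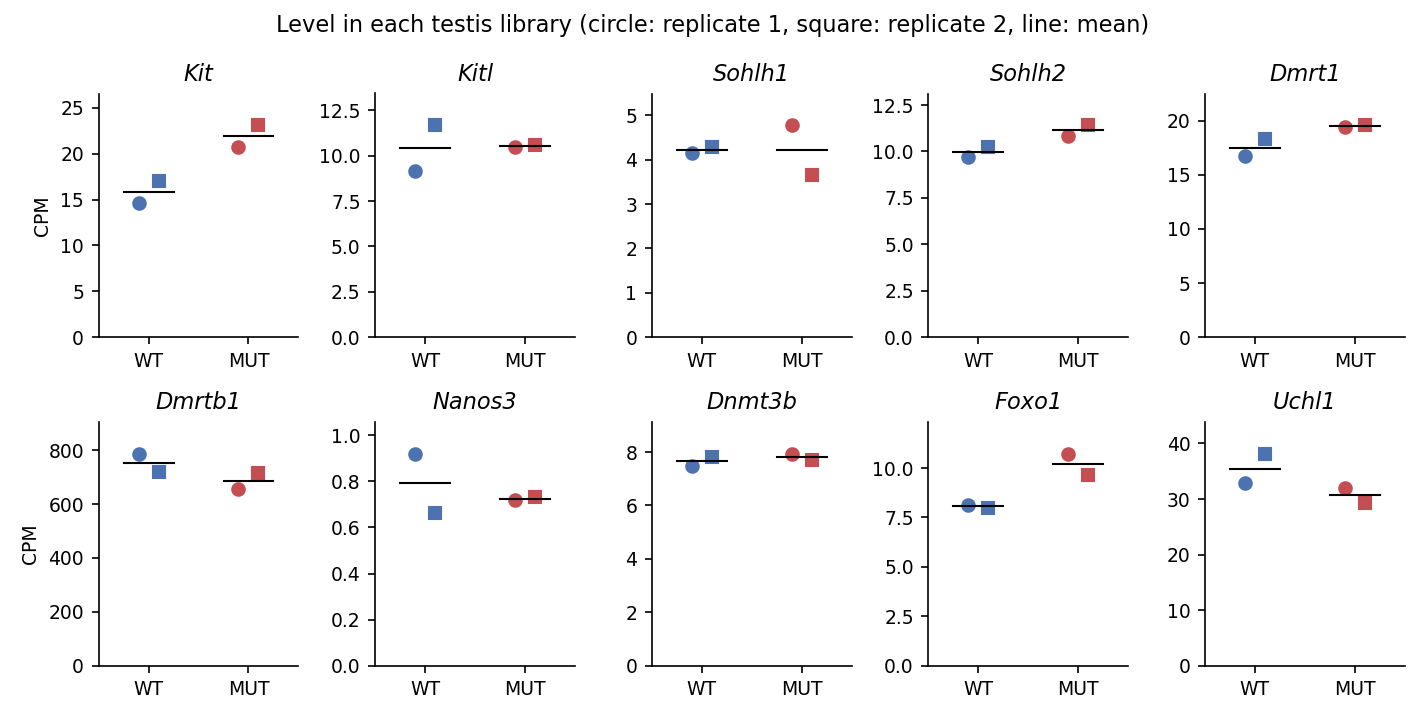
CPM (y axes, each starting at 0) of the 10 genes in the WT (blue) and MUT (red) testis libraries. Circles are replicate 1, squares replicate 2 and lines the mean of 2 libraries. Kit shows the widest separation, from 14.6 and 16.97 CPM in WT to 20.67 and 23.09 CPM in MUT, while the libraries of Kitl, Sohlh1, Nanos3 and Dnmt3b overlap.

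The DM-domain genes lay in opposite directions, each with small differences. Dmrt1, which sustains the spermatogonial program and is also expressed by Sertoli cells, was at 19.42 and 19.57 CPM in MUT 1 and MUT 2, against 16.73 and 18.3 CPM in WT 1 and WT 2 (log2 fold change 0.15, SE 0.0912, 95% interval -0.04 to 0.34, limma adjusted p = 0.461). Dmrtb1, also called DMRT6, which acts at the exit from the spermatogonial program, was at 655.6 and 716.2 CPM in MUT against 786.6 and 719.1 CPM in WT. MUT 2 and WT 2 nearly met, and the difference rested on MUT 1 and WT 1. The log2 fold change of Dmrtb1 was -0.13 (SE 0.0642, 95% interval -0.27 to 0.00, limma adjusted p = 0.341), -0.07 without MUT 1 or without WT 1, and -0.20 without MUT 2 or without WT 2. Dmrt1 (ENSMUSG00000024837) lies on chromosome 19 (plus strand, bases 25505618 to 25604329), and Dmrtb1 (ENSMUSG00000028610) on chromosome 4 (minus strand, bases 107676290 to 107684230).

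Foxo1, the forkhead factor that KIT and PI3K signalling holds in check, had the largest difference after Kit. It was at 10.72 and 9.651 CPM in MUT 1 and MUT 2, against 8.128 and 8.002 CPM in WT 1 and WT 2, and the groups did not overlap. The log2 fold change was 0.32 (SE 0.108, 95% interval 0.09 to 0.54) with an unadjusted p of 0.00842, which did not pass over all genes (limma adjusted p = 0.174). Over the other settings it stayed between 0.24 and 0.39 and was called in none of the 17, with adjusted p from 0.128 to 0.647. Foxo1 (ENSMUSG00000044167) lies on chromosome 3 (plus strand, bases 52268336 to 52353221). Its exons share 674 bases with the antisense gene Gm20402, whose reads could not be told apart from those of Foxo1 if the counting ignored strand.

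Uchl1, a ubiquitin hydrolase gene used as a marker of spermatogonia, was at 32 and 29.29 CPM in MUT 1 and MUT 2, against 32.84 and 38.14 CPM in WT 1 and WT 2. The groups were separated by 0.836 CPM, between MUT 1 and WT 1. The log2 fold change was -0.21 (SE 0.0887, 95% interval -0.39 to -0.02, unadjusted p = 0.032, limma adjusted p = 0.287), -0.10 without WT 2 and -0.31 without WT 1. Uchl1 (ENSMUSG00000029223) lies on chromosome 5 (plus strand, bases 66676091 to 66687234), and the antisense gene Uchl1os, which shares 295 exonic bases with it, was at 0.1632 to 0.2815 CPM.

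Dnmt3b, a de novo DNA methyltransferase gene, differed least between libraries. It was at 7.934 and 7.696 CPM in MUT 1 and MUT 2, against 7.476 and 7.821 CPM in WT 1 and WT 2, which overlap (log2 fold change 0.03, SE 0.11, 95% interval -0.20 to 0.26, limma adjusted p = 0.931). The RNA-binding protein gene Nanos3 was below the minimum of 1 CPM in every library, at 0.7176 and 0.733 CPM in MUT against 0.9196 and 0.6635 CPM in WT, and was not tested. It rests on 30 to 62 reads per library, with counting intervals of 25.8% to 37.6% to either side, so counting error alone is close in size to the difference seen in Kit. Without the filter its log2 fold change was -0.07 (limma adjusted p = 0.903). Dnmt3b (ENSMUSG00000027478) lies on chromosome 2 (plus strand, bases 153649450 to 153687730), 123.39 Mb from Lrrc8a, and Nanos3 (ENSMUSG00000056155) on chromosome 8 (minus strand, bases 84173731 to 84185217).

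**Figure D3:**
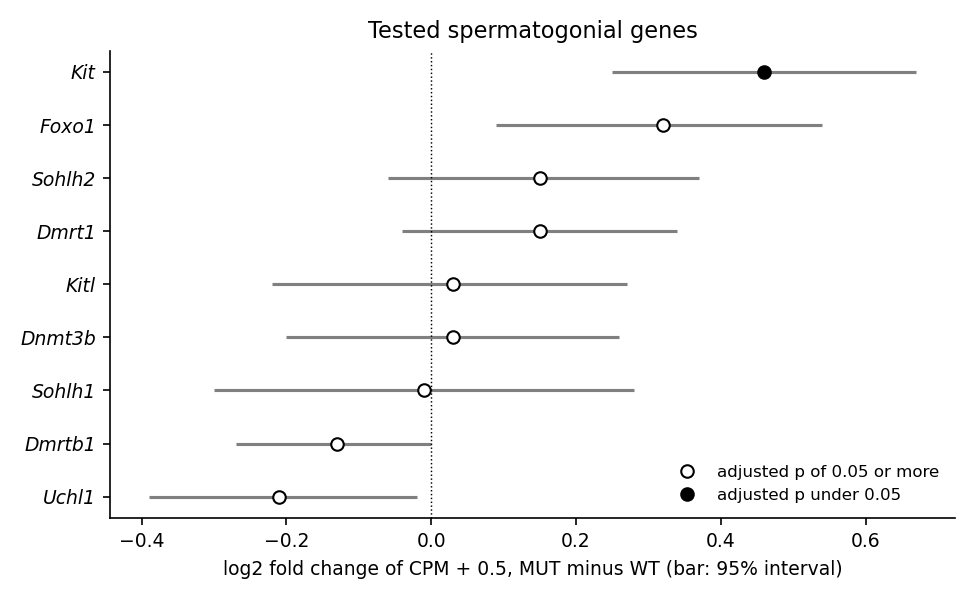
Log2 fold change of CPM + 0.5, MUT minus WT (x axis), of the 9 tested genes with 95% intervals as bars. Kit, at 0.46, is the only filled point (adjusted p under 0.05). Foxo1 at 0.32 and Uchl1 at -0.21 have intervals that leave out 0 before adjustment.

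Of the 9 tested members, 1 was called higher and 0 lower by limma, where 0.749% of all tested genes were called in either direction, and edgeR and DESeq2 gave the same counts. At an unadjusted p under 0.05, 2 were higher (Kit and Foxo1) and 1 lower (Uchl1), where 14.7% of all tested genes reached that level. The same shares of all tested genes are the background for the lists below. The groups did not overlap for 6 of the 9, against 45.6% of all tested genes, and 6 had a log2 fold change above 0, against 49.6%. The median log2 fold change was 0.029 for the members and -0.0016 over all tested genes. The GC content of the longest transcript differed with the sign of the log2 fold change. Sohlh1 (-0.01), Kitl (0.03) and Dnmt3b (0.03) lay near 0, however, and their signs changed in some settings. The 6 members with a log2 fold change above 0 had 39.3% to 53.1% GC, and the 3 below 0, Uchl1, Sohlh1 and Dmrtb1, had 56.8%, 58.1% and 59.3%. After the GC and length correction Kit was at 0.42, Foxo1 at 0.24, Uchl1 at -0.17 and Dmrtb1 at -0.07, with none called, and Sohlh1 and Kitl changed sign to 0.03 and -0.04. Whether GC content caused the directions was not tested.

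The members differ widely in abundance, and these bulk values do not show which cell types made the RNA, of Dmrtb1 or of the others. Per kilobase of annotated exons (CPM per kb), the WT means were 361 for Dmrtb1, 21.7 for Uchl1, 6.75 for Dmrt1, 4.22 for Sohlh2, 3.27 for Sohlh1, 1.77 for Kit, 1.76 for Kitl, 1.5 for Dnmt3b, 0.931 for Foxo1 and 0.857 for Nanos3. Kit and Kitl did not differ beyond their spread in WT (1.64 to 1.9 and 1.55 to 1.98 CPM per kb), nor did Foxo1 and Nanos3 (0.923 to 0.938 and 0.718 to 0.995). In MUT, Kit at 2.46 CPM per kb stood above Kitl at 1.78. The place of Kit depends on the length used, since its longest transcript has 5241 nt and its exons together 8911 nt. By the longest transcript Kit was at 3.01 CPM per kb in WT, beside Sohlh1 at 3.27, and Nanos3 at 1.08 stood above Foxo1.

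In other genes listed for differentiating spermatogonia, a list that also holds general germ cell genes such as Ddx4, no change passed the test. Of 21 tested, limma called 0 (2 at an unadjusted p under 0.05, both higher, and 0 by edgeR or DESeq2), 14 had a log2 fold change above 0, and the median was 0.095. The smallest p belonged to Ythdc2, an RNA helicase gene of meiotic entry, at 36.94 and 31.98 CPM in MUT against 26.86 and 31.22 CPM in WT (log2 fold change 0.24, limma adjusted p = 0.226, falling to 0.14 without MUT 1 or WT 1), and to Lin28a, an RNA-binding protein gene, at 4.408 and 3.763 CPM in MUT against 3.041 and 3.096 CPM in WT (0.36, adjusted p = 0.227). Stra8, which retinoic acid induces at this step, overlapped, at 9.677 and 8.063 CPM in MUT against 8.766 and 9.651 CPM in WT (limma adjusted p = 0.876). It was chosen after its values were seen.

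Genes of undifferentiated spermatogonia were not shifted together. Of 17 tested, limma called 0 (Zbtb16 and Zbtb20 higher and Ret lower at an unadjusted p under 0.05, and 0 by edgeR or DESeq2), 8 lay above 0 and 9 below, and the median was -0.025. Zbtb16, which encodes the stem cell factor PLZF, a repressor of Kit, was at 6.868 and 7.476 CPM in MUT against 5.384 and 5.268 CPM in WT (log2 fold change 0.40, limma adjusted p = 0.117). Ret, the receptor for the niche factor GDNF, lay the other way, at 4.531 and 5.375 CPM in MUT against 6.007 and 6.574 CPM in WT (-0.32, adjusted p = 0.238). The summed level of all 25 genes of this list overlapped between the groups, at 146.8 and 140.4 CPM in MUT against 133.7 and 142.1 CPM in WT. Id4, Itga6, Taf4b and Etv5 made up most of this sum in each library, and Zbtb16 and Ret added little to it. In bulk tissue, fewer cells of a type and less RNA per cell cannot be told apart.

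In the signalling chain below KIT, limma and edgeR called no gene and DESeq2 called 1. All 60 genes of the list, from the PI3K and RAS branches to the phosphatases and adaptors, were tested. At an unadjusted limma p under 0.05, 5 were higher, among them Nras, Gab2, Foxo3 and Lyn, and 3 lower, namely Map2k2, Sh2b3 and Pik3cg. Over all tested genes, 14.7% reached that level in either direction. The median log2 fold change of the 60 genes was 0.026. The gene that DESeq2 called lower was Map2k2, which encodes the MAP kinase kinase MEK2, at 140.7 and 142.6 CPM in MUT against 168.8 and 165.4 CPM in WT (log2 fold change -0.24, limma adjusted p = 0.0865, DESeq2 adjusted p = 0.042). Nras, a RAS GTPase gene, was at 86.27 and 87.88 CPM in MUT against 73.76 and 79.28 CPM in WT (0.19, limma adjusted p = 0.218). Foxo3, the paralog of Foxo1, had a log2 fold change of 0.22 (limma adjusted p = 0.258). The genes named here beyond Map2k2, Nras and Lyn were chosen after their values were seen. So were Zbtb20, Id4, Itga6, Taf4b, Etv5, Tet3, Hspa1l and Dnajb8 in the other lists.

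Among 9 tested genes of DNA methylation enzymes and readers, the partners of Dnmt3b, limma called 0 (2 higher, among them Tet3, and 1 lower, Trim28, at an unadjusted p under 0.05, and 0 by edgeR or DESeq2), with a median of -0.046. Trim28, a corepressor gene, was at 528.2 and 563.3 CPM in MUT against 624.1 and 608.1 CPM in WT (log2 fold change -0.18, limma adjusted p = 0.175). Genes of later germ cells were centred near 0. Of 23 meiotic prophase genes limma called 0 (1 higher, Sycp1, and 1 lower, Rec8, at an unadjusted p under 0.05), with a median of 0.003. Of 20 round spermatid genes limma called 0 (Fndc3a and Catsper3 higher, Hspa1l and Dnajb8 lower, at an unadjusted p under 0.05), with a median of -0.027. The count tests called 0 in both lists. Round spermatids are the cells near the stage that makes the short Kit transcript, and their summed level was 10555 and 10211 CPM in MUT against 10957 and 10244 CPM in WT.

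**Figure D4:**
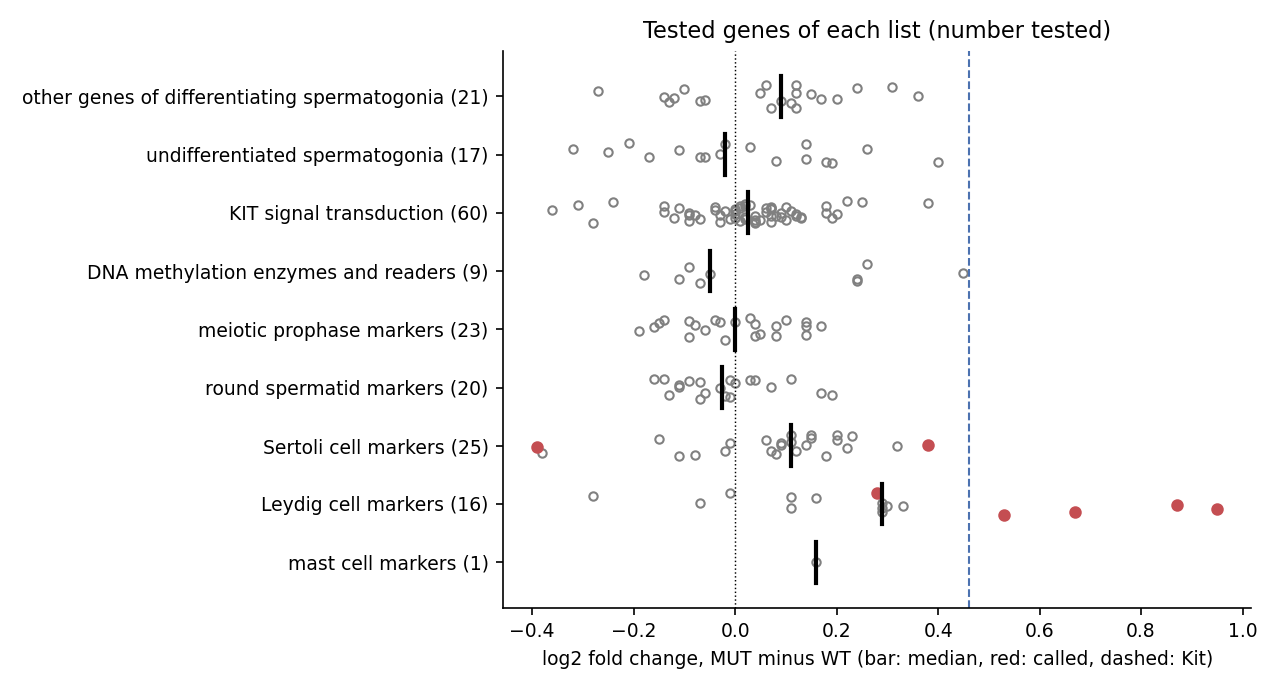
Log2 fold change, MUT minus WT (x axis), of each tested gene in 9 lists, with the number tested in parentheses. Black bars are medians, red points are called genes and the dashed line marks Kit at 0.46. Called genes appear in the Leydig (5) and Sertoli (2) lists.

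Some markers of Leydig cells, a somatic cell type that expresses Kit, were higher in MUT as Kit was. Of 16 tested Leydig genes, limma called 5 higher, 0 lower and 11 not, where 0.482% of all tested genes were called higher and 0.267% lower. The list was chosen with earlier results of these data known, so these counts are no independent test. The log2 fold change was positive in 13 and negative in 3 (Insl3, Scarb1 and Hsd3b6), with a median of 0.292. For 12 genes both MUT libraries lay above both WT libraries and for 0 below, against 23.0% and 22.6% of all tested genes. The summed level of the 18 listed genes was 1631 and 1758 CPM in MUT against 1456 and 1405 CPM in WT, a ratio of 1.18 against 1.39 for Kit. The called genes were Cyp17a1, of androgen synthesis, at 657.1 and 680.2 CPM in MUT against 572.5 and 533 CPM in WT, the prolactin receptor gene Prlr and the kallikrein genes Klk1b21, Klk1b24 and Klk1b27, while the Leydig hormone gene Insl3 overlapped, at 30.22 and 20.21 CPM in MUT against 23.26 and 39.17 CPM in WT. The kallikrein genes are near-identical paralogs, so the counting may split their reads, and DESeq2 called none of these 3. The call of Cyp17a1 (limma adjusted p = 0.0361) was lost without MUT 1 (0.0906), MUT 2 (0.16) or WT 2 (0.126), and those of Klk1b24 (0.0549) and Klk1b27 (0.0529) without WT 2. Per 1000 CPM of the Leydig list, Kit was at 12.7 and 13.1 CPM in MUT against 10 and 12.1 CPM in WT, so MUT stayed above WT but by a narrow margin over WT 2. The part of Leydig cell RNA in the Kit difference was not tested.

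Among genes listed for Sertoli cells, the source of KIT ligand, 1 was called higher, the connexin gene Gja1 (51.64 and 48.28 CPM in MUT, 37.27 and 39.47 CPM in WT), and 1 lower, the prostaglandin synthase gene Ptgds (43.83 and 42.61 CPM in MUT, 59.92 and 53.9 CPM in WT), of 25 tested, Dmrt1 included, with a median of 0.105. These bulk values do not show which cell type expressed Gja1 or Ptgds. Leaving out MUT 1 ended the call of Gja1 (limma adjusted p = 0.191), and leaving out MUT 2 (0.0567) or WT 1 (0.0589) ended that of Ptgds. Both MUT libraries lay above both WT libraries for 15 of the 25 and below for 3, against 23.0% and 22.6% of all tested genes. At an unadjusted limma p under 0.05, 7 were higher and 1 lower, where 14.7% of all tested genes reached that level. The summed level of the 25 genes was 1687 and 1705 CPM in MUT against 1633 and 1576 CPM in WT. Kit per 1000 CPM of this list was 12.2 and 13.5 in MUT and 8.94 and 10.8 in WT. Against the other genes of differentiating spermatogonia it was 16.3 and 19.3 in MUT and 12.6 and 14.2 in WT, and against the undifferentiated list 141 and 164 in MUT and 109 and 119 in WT, each without overlap. The MUT to WT ratios of the summed levels were 1.05 for the differentiating, 1.04 for the undifferentiated and 1.06 for the Sertoli list. Kit itself had a ratio of 1.39. With sums that moved so little, the separation of Kit carries over, so these values are no separate test. Ddx4, used above as a germ cell gene, was the largest part of the differentiating sum (422.5 to 480.9 of 1154 to 1265 CPM). That sum does not measure spermatogonia alone. Mast cell genes were close to the detection limit. Of the 10 in the table, 9 stayed below 1 CPM in each library, among them Cpa3 at 0.3895 to 0.764 CPM, Mrgprb1 was at 0 in all libraries, and Hdc, the histidine decarboxylase gene, was at 39.9 and 35.67 CPM in MUT against 35.58 and 31.73 CPM in WT. Hdc makes up most of this list's sum. Per 1000 CPM of the mast cell list, Kit overlapped between the groups, at 510 and 633 in MUT and 398 and 518 in WT. Cpa3, Mrgprb1, Scarb1 and Hsd3b6 were chosen after their values were seen.

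**Figure D5:**
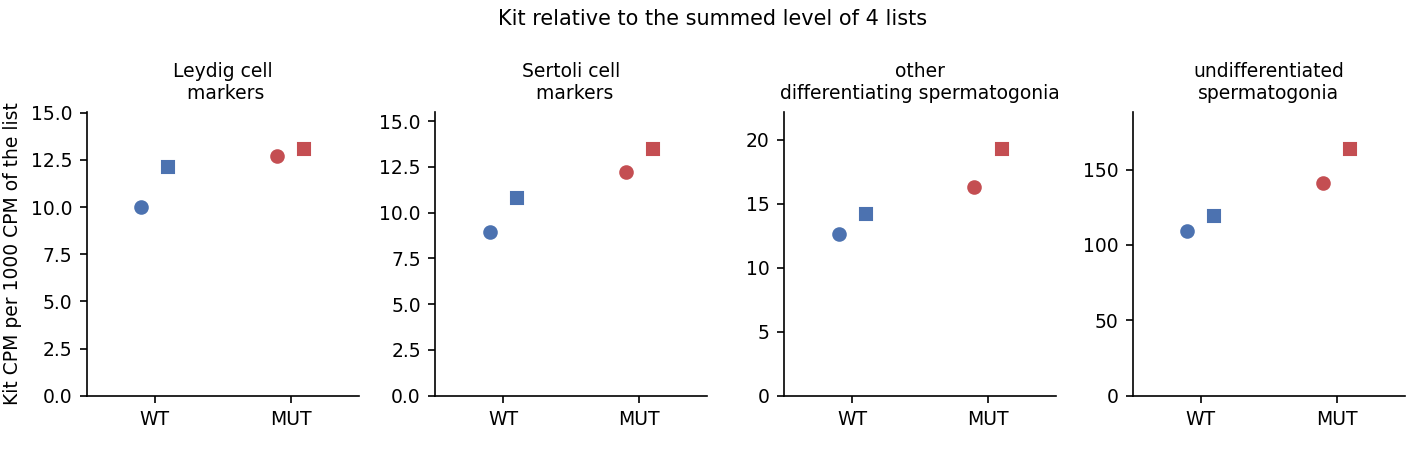
Kit CPM per 1000 CPM summed over the genes of 4 lists (y axes, each starting at 0) in WT (blue) and MUT (red) libraries, with circles for replicate 1 and squares for replicate 2. MUT lies above WT in these 4 panels, with the narrowest of the 4 gaps against the Leydig list, at 12.1 in WT 2 and 12.7 in MUT 1. Against the mast cell list, not plotted, the groups overlapped, but Hdc makes up most of that list's sum.

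The library pattern of Kit was compared with that of 190 list genes outside the members, by the distance between their deviations from the gene's own mean over the 4 libraries. The nearest was Prlr, with a distance of 0.0979 on the log2 scale, and Lyn, a SRC family kinase gene, was also among the 3 nearest (0.15). Prlr was at 32.43 and 36.21 CPM in MUT 1 and MUT 2, against 22.56 and 24.53 CPM in WT 1 and WT 2 (log2 fold change 0.53, limma adjusted p = 0.00488). Lyn was at 1.517 and 1.906 CPM in MUT against 1.157 and 1.226 CPM in WT (0.38, adjusted p = 0.309). Over 4 libraries such likeness reflects mostly the genotype difference.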

How the data were processed

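The authors deposited CPM per gene symbol for each library. The build mm10 and the tools HTSeq 0.6.0, TopHat2 2.0.10 and edgeR 3.8.6 are listed without roles, per the submitters' processing notes. No source used here says whether counting used strand. Per the labels' protocols, Trizol RNA was treated with DNase I and made into TruSeq stranded mRNA libraries. Dividing each deposited CPM value by the library's smallest gave whole numbers (100% within 0.001), taken as reads.

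Genes with at least 1 CPM in at least 2 libraries were tested on log2(CPM + 0.5) with limma 3.58.1 (mean-variance trend, two-sided, Benjamini-Hochberg over 15364 genes) in R 4.3.3. Fold changes are on that scale and understate changes of low genes. An exact permutation test of 2 against 2 libraries cannot give a p below 0.333. Alternatives changed the pseudocount, filter, scaling, variance model, block, GC and length correction and libraries, and ran edgeR 4.0.16 and DESeq2 1.42.0 on the recovered reads. On simulated reads with 15344 tested genes the share recovered was 30% for a 1.2-fold, 88% for a 1.5-fold and 100% for a 2-fold change, with 7 false calls. The simulation took the spread of each tested gene from the mean-variance trend alone. It changed only genes above a minimum mean level and held no GC or other library effects. These shares may therefore be too high for the real libraries. Positions and lengths come from GENCODE vM21 on GRCm38.

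The members and lists were chosen with earlier results of these data known. The text names all members, Lrrc8a, from each list the called genes and the 2 with the smallest p, and the 3 list genes nearest to Kit. Other genes are said to be chosen later, apart from Ddx4, Insl3 and Uchl1os, which check the tissue or overlap a member. Some genes that this rule takes are not reported here.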

Additional observations from a re-analysis of the deposited data

How the results depend on the processing

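Against 74 genes called higher and 41 lower, quantile normalization gave 35 and 18, dropping the variance trend 5 and 2, and dropping the filter 7 and 4. There were 39 and 24 calls after the GC and length correction, and 41 and 24 with that correction and the replicate block. Plain library totals gave 127 higher and DESeq2 72 lower. Leaving out single libraries gave 71 to 115 higher and 43 to 165 lower, the highest without WT 1. Of the members, 1 was called higher, and 0 with no filter, no variance trend, quantile normalization or the GC and length correction with or without the block. It was 0 to 1 when libraries were left out, and no alternative called a member lower. For Kit, with 0.46, the uncalled values were 0.46 without the filter (limma adjusted p = 0.223), 0.44 after quantile normalization (0.0778), 0.46 without the variance trend (0.202), and 0.42 after the GC and length correction without (0.0892) and with (0.0541) the block. With single libraries left out it ran from 0.36 to 0.57. Apart from fewer or more genes and samples, which the settings fix, the cause was not tested.

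Kitl turned to -0.04 after the GC and length correction, with or without the block, and ran from -0.14 to 0.19 with single libraries left out. Sohlh1 turned to 0.02 with plain totals, 0.01 by edgeR, 0.00 by DESeq2 and 0.03 after the GC and length correction, with or without the block, and ran from -0.18 to 0.16 with libraries left out. Dnmt3b turned to -0.01 after quantile normalization and ran from -0.00 to 0.06 with libraries left out.

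The replicate numbers have no stated pairing, and deviations of same-numbered libraries correlated at -0.134 across genes. With the replicate block 57 and 31 genes were called, and Kit stayed at 0.46 (limma adjusted p = 0.0325), while Cyp17a1 (0.0514) and Gja1 (0.0544) lost their calls. A crossed pairing, chosen after seeing the data, gave 131 and 104 calls. The level per kb by the longest transcript was also chosen then. Depth limits Nanos3 most, at 30 to 62 reads.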
